A study of Mus musculus with 6 samples.

Results

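The genes that fill, hold and empty the intracellular calcium store were examined in cancer-associated fibroblasts (CAFs) of mouse colonic adenomas. They were the pumps Atp2a2 and Atp2a3, the pump inhibitor Pln, the buffer Casq2, the inositol trisphosphate receptors Itpr1, Itpr2 and Itpr3, the ryanodine receptors Ryr2 and Ryr3, and the store sensor Stim1. They were taken by symbol, and all 10 were found among the 49548 genes measured. Adenomas were induced in Col6a1-mTmG mice, in which a Col6a1Cre transgene switches cells from Tomato to GFP, with azoxymethane (AOM) at 8 to 10 weeks of age and 3 cycles of 2.5% dextran sodium sulfate (DSS). Cells without CD45, CD31, Ter119 and EpCAM were sorted into Col6a1+ (GFP+) CAFs and Col6a1- (Tomato+) CAFs, with 3 libraries of 3′ mRNA sequencing in each group. Every library pooled tumors of 5 to 6 mice, and all mice carried the same reporter and received the same treatment. The study states for its experiments in general that mice of both sexes were used. The title of every sample carries the label WT (wild type), and the study kept its mice on a C57/Bl6 background. Per the study, Col6a1Cre targets mainly PDGFRa-high fibroblasts and perivascular cells, and the Col6a1- group holds trophocytes and most PDGFRa-low fibroblasts. The comparison asks how the calcium store genes differ between these 2 sorted populations within the same kind of tumor.

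Calcium is pumped from the cytosol into the endoplasmic or sarcoplasmic reticulum by the SERCA pumps, is bound there by buffers such as calsequestrin, and leaves through inositol trisphosphate receptors and ryanodine receptors. STIM proteins sense an emptied store and open entry channels of the plasma membrane. In smooth muscle and pericytes release from this store takes part in contraction, and in epithelial cells it takes part in secretion.

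Levels are normalized counts, the authors' counts scaled between libraries, which sum to between 3039152 and 3425249 per library. The count of sequenced reads is not known from these values. Genes with at least 1 normalized count numbered 14530 in Col6a1+ replicate 1 and 18770 to 20511 in the other 5 libraries. In bulk samples, fewer cells of a type and less RNA per cell cannot be told apart. The sorted populations differed in their markers. Summed pericyte markers (7 genes, such as Rgs5 and Kcnj8) lay between 41437 and 90948 normalized counts in Col6a1+ CAFs and between 1147 and 2141 in Col6a1- CAFs. Summed smooth muscle markers (9 genes) lay between 12708 and 25252 against 513 to 2499. Most of the smooth muscle sum was Acta2 (means 14400 and 1137). All 9 genes had log2 differences above 0, and 6 had a limma adjusted p under 0.05. Cnn1 was among the others, with 69, 57 and 31 counts against 69, 80 and 15. Summed fibroblast markers (6 genes) lay between 37468 and 41177 against 6799 to 13785. Epithelial markers (9 genes) went the other way, with sums of 5684 to 6337 in Col6a1+ and 19505 to 31430 in Col6a1- CAFs, and Epcam itself, whose protein was used to remove cells, was present at 615 to 1074 and 3107 to 4129. Immune markers (8 genes) summed to 50 to 70 and 319 to 548. The endothelial, erythroid and glial sums overlapped between the groups. Endothelial markers summed to 128 to 342 and 129 to 320, and erythroid markers to 68 to 946 and 149 to 312. Glial markers were low, with sums of 50 to 73 and 19 to 52. Of the 7 endothelial markers, Tie1 was higher in Col6a1+ CAFs (220, 56 and 152 counts against 1, 7 and 21). The other 6 had log2 differences below 0, so the overlap of the endothelial sums does not show alike levels of the members. Neuronal markers summed to 74 to 213 and 27 to 58, without overlap, and by the means most of this was Uchl1 (128.0 and 27.0). Markers of interstitial cells of Cajal summed to 321 to 614 and 91 to 174, also without overlap. Most of this last sum was Ano1 (means 444.0 and 125.0). Kit, of the same list, went the other way, with 0, 0 and 5 counts in Col6a1+ and 15, 12 and 14 in Col6a1- CAFs.

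**Figure D1:**
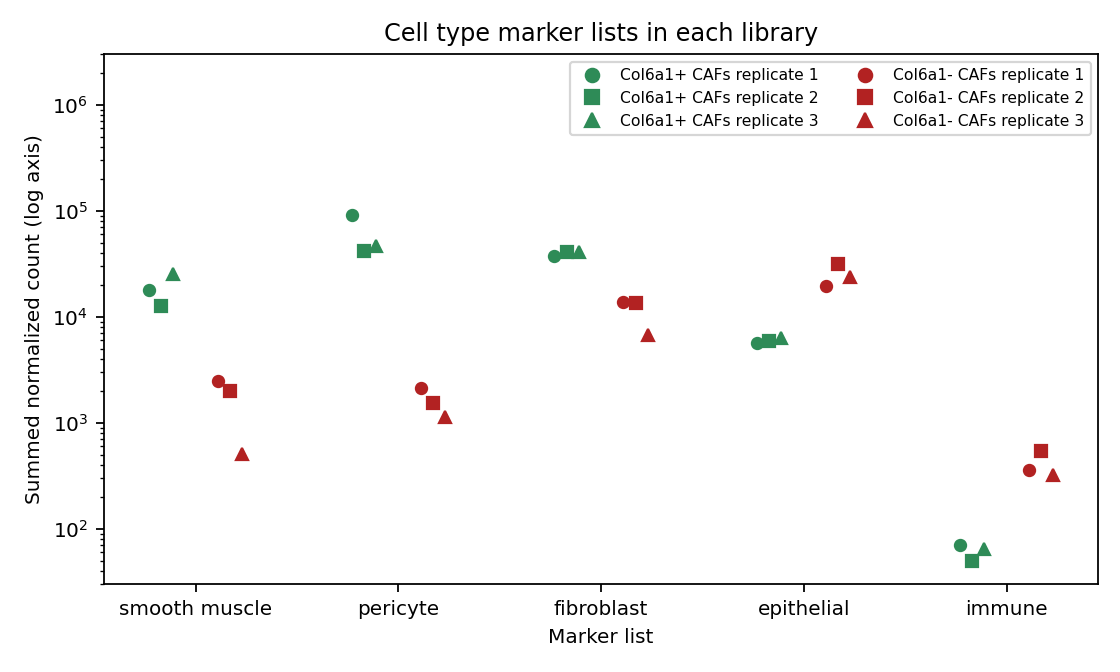
Summed normalized counts (log axis) of 5 marker lists in each library, with Col6a1+ CAFs in green and Col6a1- CAFs in red and a symbol for each replicate number. Pericyte and smooth muscle sums are higher in all 3 Col6a1+ libraries, and epithelial and immune sums in all 3 Col6a1- libraries.

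Of the 10 genes, Casq2 was higher and Itpr3 lower in Col6a1+ CAFs at an adjusted p under 0.05, and the other 8 did not pass. Over all 26402 genes tested with limma, 2.66% were called higher and 1.96% lower. In 4 genes (Casq2, Atp2a2, Itpr2 and Stim1) all Col6a1+ libraries lay above all Col6a1- libraries, where 7.91% of all genes did so. In 1 gene (Itpr3) they all lay below, where 11.6% of all genes did so. The median log2 difference of the 10 genes was 0.97, against -0.27 over all genes tested. By a looser criterion (p under 0.05 before adjustment, and over 1 in log2 size), Stim1 joined Casq2 as higher and Itpr3 stayed the 1 lower gene, where 6.09% of all genes were higher and 8.61% lower by this criterion.

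**Figure D2:**
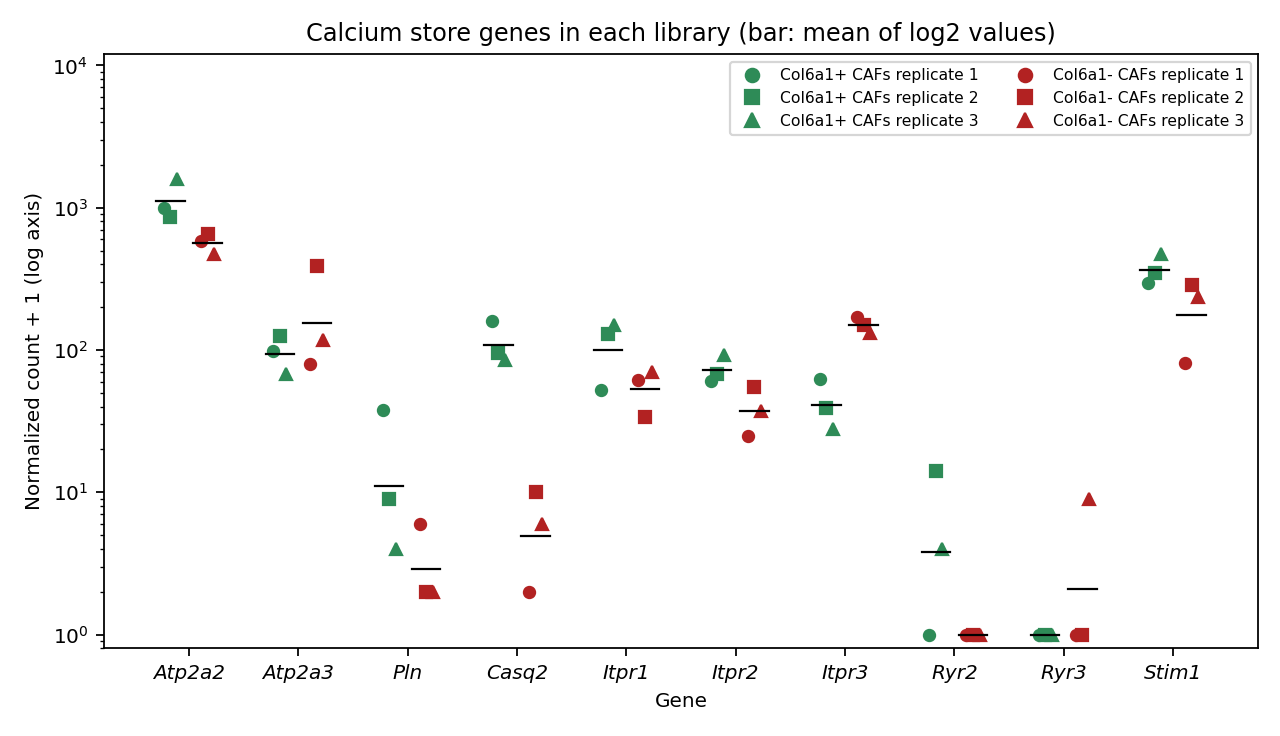
Normalized count plus 1 (log axis) of each calcium store gene in every library, with Col6a1+ CAFs in green, Col6a1- CAFs in red and a black bar at the mean of the log2 values. Casq2 lies at 84 to 159 in Col6a1+ and 1 to 9 in Col6a1- CAFs, and Itpr3 at 27 to 62 and 130 to 170.

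The promoter sequences of the 2 genes that passed are shown, and a link of base composition with the direction of change was not tested. They are the 250 bases before the start site from RefSeq (GRCm38.p6), which held promoters for 7 of the 10 genes. Capitals mark a MEF2 site, the binding sequence of a muscle transcription factor, in Casq2, and the motifs GGGCGG and CACGTG in Itpr3. The Casq2 sequence is chr3:102086165-102086414 on the plus strand and that of Itpr3 is chr17:27057054-27057303 on the plus strand.
Casq2: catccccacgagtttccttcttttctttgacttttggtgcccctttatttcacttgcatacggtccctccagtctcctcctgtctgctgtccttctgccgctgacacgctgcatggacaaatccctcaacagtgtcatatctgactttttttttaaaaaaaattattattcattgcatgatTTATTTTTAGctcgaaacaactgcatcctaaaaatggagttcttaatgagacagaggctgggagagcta
Itpr3: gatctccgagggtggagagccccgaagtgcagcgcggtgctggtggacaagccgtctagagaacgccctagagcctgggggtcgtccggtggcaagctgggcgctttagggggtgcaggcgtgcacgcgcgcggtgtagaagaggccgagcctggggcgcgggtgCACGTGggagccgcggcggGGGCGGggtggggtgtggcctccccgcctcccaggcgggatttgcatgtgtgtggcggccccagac
The Casq2 window held 41.6% G and C and the Itpr3 window 72.0%, against a median of 52.4% over 32851 mouse promoter windows. The other windows held 32.8% (Pln), 63.2% (Ryr2), 66.8% (Atp2a3), 74.4% (Itpr2) and 78.4% (Stim1). The motifs were searched on both strands and were chosen with the genes known. A MEF2 site was found in Casq2 alone of the 7 genes and in 2.92% of all windows, and its match starts 69 bases before the start site. GGGCGG was found in 4 of the 7 (Atp2a3, Itpr2, Itpr3 and Stim1) and in 32.7% of all windows, CACGTG in Itpr3 and in 6.02%, and TATAAA in Pln and in 12.4%. A CArG box (1.47% of all windows) and GTGGGAA (5.42%) were found in none of the 7. A match is a description of the letters in the window.

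Casq2 encodes calsequestrin 2, the calcium buffer of cardiac and smooth muscle stores (chr3:102086415-102146514, mm10). Its normalized counts were 159, 94 and 84 in Col6a1+ CAFs and 1, 9 and 5 in Col6a1- CAFs. Every Col6a1+ library was above every Col6a1- library, and the lowest Col6a1+ value stood far from the highest Col6a1- value. The means were 112.0 ± 40.7 and 5.0 ± 4.0 (SD, n = 3 each), a ratio of 22.5, and the log2 difference was 4.46 (SE 0.75, 95% interval 2.80 to 6.13, limma adjusted p = 0.00892). In the paired fit, which adds the replicate number as a block, its adjusted p was 0.0935, and that fit called 0 of the 26402 genes, with a lowest adjusted p of 0.0612. It was 0.0634 without Col6a1+ replicate 2, 0.0661 without Col6a1+ replicate 3, 0.0749 without Col6a1- replicate 1 and 0.0921 without Col6a1- replicate 3, while the log2 difference stayed between 3.81 and 4.97. Pericyte and smooth muscle markers were higher in the same libraries, and their part in the Casq2 difference was not tested.

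Atp2a2, the widely expressed SERCA pump (chr5:122453513-122502225), had the highest counts of the 10 genes. Its counts were 988, 865 and 1597 in Col6a1+ CAFs and 582, 648 and 470 in Col6a1- CAFs. The groups did not overlap, and the highest value was in Col6a1+ replicate 3. That library also had the highest smooth muscle marker sum, most of it Acta2 (20435 counts). The highest pericyte marker sum was in Col6a1+ replicate 1, and the part of these markers in the Atp2a2 difference was not tested. The Atp2a2 means were 1150 ± 392.0 and 567.0 ± 90.0 (SD, n = 3 each). The log2 difference of 0.98 (SE 0.31, 95% interval 0.29 to 1.67) had a limma adjusted p of 0.116. Atp2a3, a SERCA pump typical of epithelial and blood cells (chr11:72961169-72993044), had counts of 98, 124 and 67 in Col6a1+ CAFs and 79, 388 and 117 in Col6a1- CAFs. The groups overlapped, and the 388 of Col6a1- replicate 2, the library with the highest epithelial and immune marker sums, stood above the rest. The log2 difference was -0.71 (SE 0.56, limma adjusted p = 0.603), it was -0.04 without Col6a1- replicate 2, and the part of the epithelial markers in it was not tested. Pln encodes phospholamban, the inhibitor of the SERCA pump in muscle (chr10:53337686-53345999). It had counts of 37, 8 and 3 in Col6a1+ CAFs and 5, 1 and 1 in Col6a1- CAFs. The value of Col6a1+ replicate 1 stood apart, the groups overlapped, and the log2 difference of 1.94 had an SE of 1.12 and a limma adjusted p of 0.444, and it was 1.06 without that replicate.

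The 3 inositol trisphosphate receptors, release channels opened by inositol trisphosphate, differed in direction. Itpr3 (chr17:27057304-27122223) had counts of 62, 38 and 27 in Col6a1+ CAFs and 170, 150 and 130 in Col6a1- CAFs. All 3 Col6a1- libraries lay above all Col6a1+ libraries. The means were 42.3 ± 17.9 and 150.0 ± 20.0 (SD, n = 3 each), so that Col6a1- CAFs were 3.54 times higher, and the log2 difference was -1.87 (SE 0.43, 95% interval -2.83 to -0.92, limma adjusted p = 0.0355). Its adjusted p was 0.0916 with the replicate block and 0.0518 with a pseudocount of 0.1. It was 0.121 without Col6a1+ replicate 2, 0.133 without Col6a1+ replicate 3, and 0.154, 0.153 and 0.156 without Col6a1- replicate 1, 2 and 3. Epithelial marker sums were also higher in all Col6a1- libraries, by a ratio of 4.15 between the means, and their part in the Itpr3 difference was not tested. Itpr1 (chr6:108213096-108551109) had counts of 51, 129 and 150 in Col6a1+ CAFs and 61, 33 and 69 in Col6a1- CAFs. The groups overlapped through Col6a1+ replicate 1, and the log2 difference was 0.93 (SE 0.52, limma adjusted p = 0.434). A gene on the other strand within Itpr1, Gm44101, had 47 counts in that library and at most 1 in the others, and it is not stated whether the counting used strand. Itpr2 (chr6:146108299-146502223) had counts of 60, 67 and 91 against 24, 54 and 36. These groups did not overlap, but only narrowly, and the log2 difference of 0.97 (SE 0.49) had a limma adjusted p of 0.369.

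The sum of the 3 receptor counts was 173 to 268 in Col6a1+ and 235 to 255 in Col6a1- CAFs, so the groups overlapped in the total. Itpr3 made up 35.8%, 16.2% and 10.1% of it in Col6a1+ CAFs and 66.7%, 63.3% and 55.3% in Col6a1- CAFs. Itpr1 made up 29.5%, 55.1% and 56.0% against 23.9%, 13.9% and 29.4%. The Itpr3 shares did not overlap, and the Itpr1 shares were separated by 29.4% and 29.5%. On the authors' scale per base of gene model, Itpr3 made up 58.3% to 88.2% of the receptor level in Col6a1+ and 93.8% to 96.0% in Col6a1- CAFs. These shares were looked at after the values were seen and have no test. The log2 ratio of Itpr1 to Itpr2 plus Itpr3 was -1.24, 0.29 and 0.34 in Col6a1+ and -1.65, -2.59 and -1.25 in Col6a1- CAFs. It was higher by 1.63 in Col6a1+ CAFs (n = 3 each, exact two-sided permutation p = 0.1, adjusted over 5 ratios 0.5), and 0.1 is the smallest p that 3 libraries against 3 allow. An exact test that swapped the groups within same-numbered pairs gave p = 0.25, the smallest that 3 pairs allow.

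**Figure D3:**
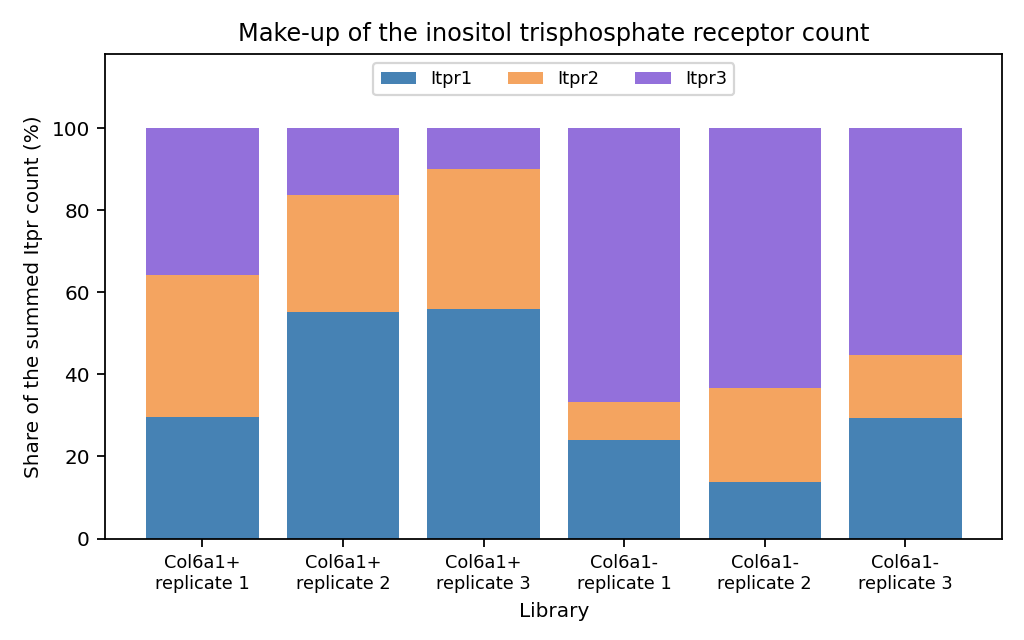
Share of the summed Itpr1, Itpr2 and Itpr3 normalized count (%, stacked to the full sum) in each library. Itpr3 holds 55.3% to 66.7% in the Col6a1- libraries and 10.1% to 35.8% in the Col6a1+ libraries.

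Ryanodine receptors, release channels opened by calcium itself, were near the limit of detection. Ryr2 (chr13:11553103-12106945), the form of cardiac and smooth muscle, had counts of 0, 13 and 3 in Col6a1+ CAFs and 0 in each Col6a1- library. With a floor of 3 normalized counts per library, the Col6a1+ mean was at least 1.78-fold higher. This bound rests on the 13 counts of Col6a1+ replicate 2, without which the mean is under the floor and no bound is left, and 1 Col6a1+ library was also at 0. Ryr3 (chr2:112631355-113217096) was at 0 in every Col6a1+ library and at 0, 0 and 8 in Col6a1- CAFs, so no fold is given. Its end overlaps Aven on the other strand, which had 28 to 87 counts. The limma adjusted p was 0.332 for Ryr2 and 0.59 for Ryr3, and a difference in either was not detectable at these counts.

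Stim1, the sensor that opens calcium entry when the store is empty (chr7:102267806-102437319), had counts of 294, 345 and 473 in Col6a1+ CAFs and 80, 283 and 236 in Col6a1- CAFs. The groups did not overlap, by 294 against 283, and Col6a1- replicate 1 was the lowest. The means were 371.0 ± 92.2 and 200.0 ± 106.0 (SD, n = 3 each), and the log2 difference was 1.05 (SE 0.47, 95% interval 0.02 to 2.08, limma adjusted p = 0.301). It was 0.49 without Col6a1- replicate 1. Its paralog Stim2 had means of 77.0 ± 33.0 and 61.7 ± 11.4.

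**Figure D4:**
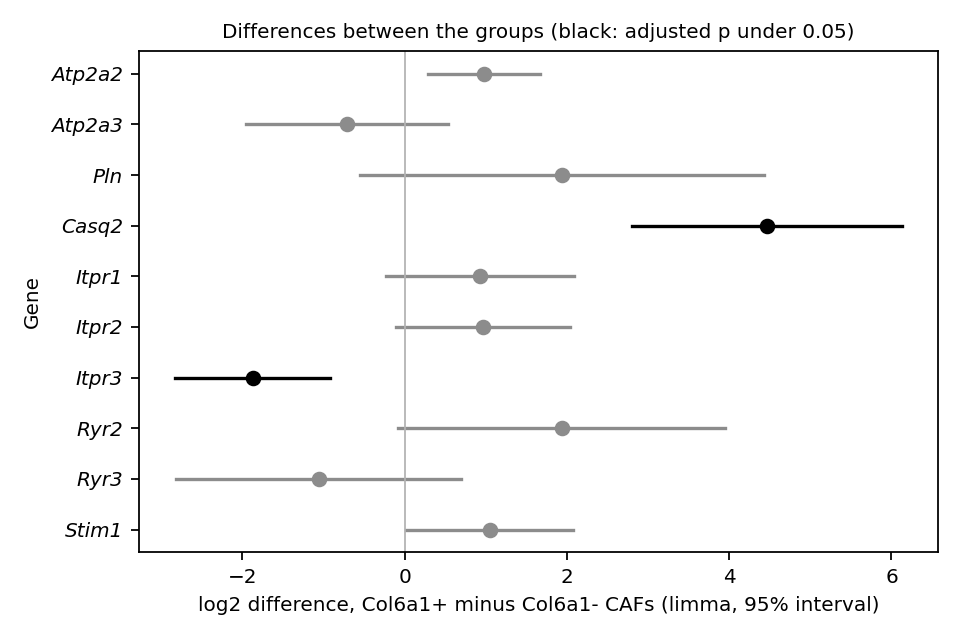
Log2 difference of each calcium store gene, Col6a1+ minus Col6a1- CAFs, with the limma 95% interval. Black marks the genes with an adjusted p under 0.05, Casq2 at 4.46 and Itpr3 at -1.87, and gray marks the other 8.

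Ratios within a library were compared for 4 further pairs, with 1 added to each count, so that ratios of low counts depend on that addition. The Atp2a2 to Atp2a3 log2 ratio was 3.32, 2.79 and 4.55 in Col6a1+ CAFs and 2.87, 0.74 and 2.00 in Col6a1- CAFs, a difference of 1.69 with overlapping groups (n = 3 each, exact permutation p = 0.2, adjusted 0.5). The log2 ratio of Pln to Atp2a2, inhibitor to pump, was -4.70, -6.59 and -8.64 against -6.60, -8.34 and -7.88, a difference of 0.96 (exact permutation p = 0.6, adjusted 0.6), which became -0.01 without Col6a1+ replicate 1. The Stim1 to Stim2 log2 ratio differed by 0.80 (exact permutation p = 0.4, adjusted 0.5) and by 0.19 without Col6a1- replicate 1. That of Ryr2 to Ryr3 differed by 2.99 (exact permutation p = 0.3, adjusted 0.5) on counts mostly at 0. No ratio could pass an adjusted p of 0.05 in this design.

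On the authors' scale per kilobase of gene model, the Col6a1+ order ran from Atp2a2 (205.0 ± 69.9) to Casq2 (46.1 ± 16.7), Stim1 (39.4 ± 9.79), Itpr3 (21.7 ± 9.18), Atp2a3 (18.9 ± 5.59), Itpr1 (5.26 ± 2.49), Pln (4.95 ± 5.68), Itpr2 (2.2 ± 0.492) and Ryr2 (2.0 ± 2.55, SD, n = 3). The library ranges of neighbors overlapped except between Atp2a2 and Casq2 and between Atp2a3 and Itpr1. In Col6a1- CAFs the order was Atp2a2 (101.0 ± 16.0), Itpr3 (77.0 ± 10.3), Atp2a3 (38.1 ± 33.0), Stim1 (21.2 ± 11.3), Itpr1 (2.6 ± 0.903), Casq2 (2.05 ± 1.64), Itpr2 (1.15 ± 0.457), Pln (0.722 ± 0.715) and Ryr3 (0.278 ± 0.482), and only Stim1 and Itpr1 were neighbors whose ranges stood apart. Casq2 thus took the second place in one group and the sixth in the other. The lengths behind this scale ran from 1949 bases for Itpr3 to 33042 for Itpr2, which encode receptors of like size, and 3′ counts need not grow with length, so the order between genes is that of the authors' scale only.

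The rest of the calcium pathway was read from 64 genes in 5 lists, of which 59 were tested, 5 were called higher in Col6a1+ CAFs and 0 lower by limma, where 2.66% and 1.96% of all genes were. By the looser criterion, 11 were higher and 1 lower, where 6.09% and 8.61% of all genes were. Their median log2 difference was 0.21. Among store release regulators, 2 of 15 tested were higher. Jph2, a junctophilin that ties the store to the plasma membrane, had counts of 140, 316 and 178 against 9, 72 and 8 (log2 difference 3.42, limma adjusted p = 0.0305). Mrvi1, which links inositol trisphosphate receptors to cGMP kinase, had 635, 677 and 941 against 98, 139 and 78 (log2 difference 2.85, limma adjusted p = 0.00172), and it is on a mural cell list that the study compared with these same samples. Both stood without overlap between the groups.

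Among genes of store-operated entry, 2 of 9 were higher, of which Trpc1 is described. This cation channel had 83, 87 and 91 counts against 17, 16 and 10 (log2 difference 2.55, limma adjusted p = 0.0192). The Orai channels that STIM1 opens did not pass, and Orai1 had means of 109.0 ± 40.3 and 210.0 ± 82.9. Among plasma membrane and mitochondrial transporters, 1 of 13 tested was higher. Atp2b4, a pump that expels calcium from the cell, had 901, 476 and 510 counts against 71, 72 and 62 (log2 difference 3.12, limma adjusted p = 0.00143). With the replicate block none of the 5 genes passed, and the adjusted p rose to 0.0799 for Jph2, 0.0612 for Mrvi1, 0.0853 for Trpc1 and 0.0612 for Atp2b4. Pericyte and smooth muscle markers were higher in the same libraries, and their part in these differences was not tested.

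None of the 13 tested genes among other store channels, pumps and buffers passed, nor did any of the 9 of inositol trisphosphate production (limma). By the looser criterion 2 and 3 genes passed, both directions counted together, where 6.09% of all genes were higher and 8.61% lower. The 1 lower gene among them was Plcb1, with 0, 15 and 7 counts in Col6a1+ and 32, 31 and 42 in Col6a1- CAFs (log2 difference -2.82, limma adjusted p = 0.196). The 0 was in Col6a1+ replicate 1, the library with the fewest genes detected. Leaving out 1 library gave Plcb1 differences from -3.66 to -1.66. The general store buffers Calr and Canx had means of 1781 ± 228.0 and 738.0 ± 146.0 in Col6a1+ CAFs and 1755 ± 49.2 and 787.0 ± 107.0 in Col6a1- CAFs (SD, n = 3 each). Sln, Strit1, Trdn, Jph3 and Slc8a1 were at 0 in every library and were not tested. The skeletal muscle forms were near 0, with means of 2.0 and 1.0 for Ryr1, 1.33 and 2.33 for Atp2a1 and 1.67 and 3.67 for Casq1.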

How the data were processed

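3′ mRNA libraries of 3 Col6a1+ and 3 Col6a1- CAF samples were analysed. The authors mapped reads to mm10 with TopHat2 and then Bowtie2, summarized them to gene counts and tested them through metaseqR with GenomicRanges and DESeq. The method that normalized the counts is not given in the sources used here. The authors deposited the log2 of the normalized count plus 1, and normalized counts per base of gene model. Their fold changes and the DESeq p-values of 21812 genes were not used. Limma 3.58.1 in R 4.3.3 (trend) was fitted to the log2 values of the 26402 genes with a sum of at least 1. Benjamini-Hochberg adjustment was used with a threshold of 0.05. The fit was also run on simulated data with large changes in genes of higher counts, which does not measure its power for small differences or low counts. Ratios were compared by exact permutation. Same-numbered libraries deviated together (r = 0.245, 0.125 and 0.144 over 13515 genes), and the study took each sample from a pool. Numbers were therefore read as pairs in the fits with the replicate block. The main limma fit and the permutation of libraries for the ratios did not use the pairs. The labels do not state the pairing, and Col6a1+ replicate 2 with Col6a1- replicate 3 reached r = 0.15. The genes and lists were chosen with earlier results of these data known. Outside the 10 genes, at most 3 called genes in each direction were named per list, and some genes of the lists are not reported here. Stim2, Orai1, Plcb1, Calr, Canx, Ryr1, Atp2a1, Casq1, the markers Acta2, Cnn1, Tie1, Uchl1, Ano1 and Kit, and the genes at 0 were added after their values were seen. Strit1 is listed as Gm34302, and Itgam has 2 entries, which were summed. The sources used here do not say whether pools shared mice, and p-values measure only the spread between these libraries.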

Additional observations from a re-analysis of the deposited data

How the results depend on the processing

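The direction of each of the 10 genes held in every alternative that gave a value, and at an adjusted p under 0.05 calls changed for Casq2 and Itpr3 alone (12 of 139 gene values, the looser criterion not counted). Sizes moved more: leaving out 1 library gave -1.18 to -0.04 for Atp2a3, 0.49 to 1.40 for Stim1, 0.61 to 1.41 for Itpr1, 1.06 to 2.68 for Pln and 1.00 to 2.90 for Ryr2. The 1 higher call became 0 with at least 10 counts in every library, where Casq2 was not tested, 0 with the replicate block, 0 to 1 when 1 library was left out, and 2 with the looser criterion. The 1 lower call became 0 with a pseudocount of 0.1, 0 with the replicate block and 0 to 1 when 1 library was left out. Without Col6a1+ replicate 1, the looser criterion gave 5 higher and 1 lower of the 10 genes, an alternative chosen after seeing the data. The share of all genes passing in that fit is not given here, so these counts cannot be set against it. The 5 higher calls among other calcium genes became 8 with array quality weights, 0 with the replicate block, 10 with the replicate block at a mean of at least 10, and 0 to 5 without 1 library, 0 being without Col6a1- replicate 1. The looser criterion gave 11 higher and 1 lower. The shares of all genes called with array quality weights or without 1 library are not given here. Those counts therefore cannot be set against them. The loss under the block was general, since limma with it called 0 of 26402 genes (703 higher and 517 lower without it), the markers included, while 4418 had an unadjusted p under 0.05 (4234 without it). With the block and a mean of at least 10, Casq2 (adjusted p = 0.0102) and Itpr3 (0.0183) passed, among 981 higher and 871 lower of 13515 genes. Of the ratios, Pln to Atp2a2 turned to -0.01 without Col6a1+ replicate 1, and leaving out 1 library gave -0.01 to 1.96. The same gave 0.19 to 1.27 for Stim1 to Stim2, 1.12 to 2.19 for Atp2a2 to Atp2a3, 1.25 to 2.15 for Itpr1 to the other receptors and 1.94 to 3.96 for Ryr2 to Ryr3. With a pseudocount of 0.1, Ryr2 to Ryr3 became 6.11 and Pln to Atp2a2 1.43. The cause was not tested. Rescaling moved the median over all genes from -0.27 to -0.31 or -0.29. Counts under about 10, as for Pln, Ryr2 and Ryr3, limit what could be seen.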
